A study of Mus musculus with 6 samples.

Results

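Adhesion G protein-coupled receptors were followed in RNA from Lewis lung carcinoma cells, a mouse lung tumour line grown in culture. The genes described are Gpr56, Cd97, Lphn1, Lphn2, Gpr124, Gpr125 and Gpr126, 7 of the 19617 rows of the deposited table, taken by their older symbols. The family was selected on the measured log2 fold change of Gpr56 between the groups, which was among the largest rises, so the difference between the groups is given for these 7 genes as a description and carries no test. The Urod shRNA group had 3 libraries of cells with an inducible short hairpin RNA against Urod, and the scrambled shRNA group had 3 libraries of cells with a scrambled hairpin from a lentivirus, labelled Urod wildtype. Cells of both groups were Lewis lung carcinoma cells given 2 ug/mL doxycycline, the agent that switches the hairpins on, for 4 days. The labels give neither the number of hairpin sequences used against Urod nor the culture behind each of the 3 libraries of a group. The p-values therefore set the difference between the groups against the spread between libraries alone.

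Adhesion receptors join a long extracellular part, built of domains that bind matrix or other cells, to a bundle of helices that crosses the membrane and couples to G proteins. Most cut themselves just outside the membrane, and the stub left on the helices acts as a tethered agonist once the outer part is removed. In tumours the family is best known through GPR56, which binds collagen III and transglutaminase 2 and has been studied in melanoma metastasis, and through CD97, a receptor of leukocytes and carcinomas.

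The cut is made at a short motif with a histidine, a leucine or phenylalanine and a threonine or serine. The coding bases of this site, from the longest reading frame of each gene in GENCODE M21 on GRCm38, are shown because the site is what the family shares and the choice of genes did not use it. A motif of 2 cysteines spaced by any residue, any residue, then these 3 residues was found in 5 of the 7 genes. Capitals mark the 3 codons that begin with the histidine, and each run lies within 1 coding exon.
Gpr56, chr8:95007630-95007659, plus strand, exon 9 of 14: tgcctgtgcaacCACCTGACCtactttgca
Cd97, chr8:83725892-83725921, minus strand, exon 13 of 20: tgccactgcaacCACCTGACCagctttgcc
Lphn1, chr8:83933994-83934023, plus strand, exon 14 of 23: tgtgcctgcagcCACCTCACCaacttcgca
Lphn2, chr3:148837591-148837620, minus strand, exon 12 of 23: tgcgcttgcagcCACCTAACCaattttgct
Gpr126, chr10:14431615-14431644, minus strand, exon 18 of 25: tgtctgtgcagcCACTTCACTcactttgga
The capitals of Gpr56 and Cd97 were the same letters. Among the 5, Gpr126 alone had a phenylalanine codon in the middle of the capitals. No match to this motif was found in the longest reading frames of Gpr124 and Gpr125.

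Values are TPM, transcript abundance scaled for length and library total, so levels of different genes can be set side by side. Reads recovered from the table, in units of 1e+06, came to 44.1 to 50.8 per Urod shRNA library and 38.4 to 43.3 per scrambled library. The hairpin's target was checked first. Urod, the uroporphyrinogen decarboxylase of heme synthesis, stood at 5.71, 5.21 and 5.35 TPM in Urod shRNA libraries, against 95.2, 89.9 and 92.1 TPM in scrambled libraries. Urod was 17.03-fold lower in Urod shRNA cells (log2 difference -3.86, SE 0.05, limma, adjusted p = 8.22e-09). Differences are of mean log2(TPM + 1), Urod shRNA minus scrambled shRNA, and the 11980 genes that averaged 1 TPM or more were tested. Of these, 74.7% passed an adjusted p of 0.05 in limma, 38.5% higher and 36.2% lower in Urod shRNA cells, and the median difference was 0.02. A change of at least 2-fold on this scale was called for 7.53%. All 3 values of one group lay above all 3 of the other for 77.3% of the genes tested. Markers of the carcinoma line were uneven. Krt8, a keratin of simple epithelia, stood at 445 to 468 TPM in Urod shRNA libraries and 301 to 328 TPM in scrambled libraries, and Vim, the mesenchymal filament vimentin, at 3799 to 3901 TPM in Urod shRNA libraries and 7778 to 7878 TPM in scrambled libraries. Epcam, an epithelial adhesion molecule, fell to 0.943 ± 0.116 TPM in Urod shRNA cells, against 1.96 ± 0.195 TPM in scrambled cells (SD, n = 3 each, limma, adjusted p = 0.00039). Epcam reached the mean of 1 TPM for testing only through scrambled cells. Krt18, Krt19 and Cdh1 averaged under 1 TPM. Values of bulk RNA cannot tell fewer cells of a type from less RNA per cell.

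Gpr56 had the largest difference of the 7 genes and, in Urod shRNA cells, the highest level. It stood at 107.6, 119.2 and 117.1 TPM in Urod shRNA libraries, against 25.2, 26.9 and 27.6 TPM in scrambled libraries. The groups did not overlap, and the lowest Urod shRNA library was 3.90 times the highest scrambled library. The means were 114.6 ± 6.18 TPM in Urod shRNA cells and 26.6 ± 1.22 TPM in scrambled cells (SD, n = 3 each), a ratio of 4.31. The log2 difference was 2.07 (SE 0.05), which ranked 16 of the 11980 genes tested, counted from the largest rise. These TPM rested on 9602, 10170 and 8954 recovered reads in Urod shRNA libraries and 1642, 1851 and 2018 in scrambled libraries. The spread between libraries was 5.39% of the mean in Urod shRNA cells and 4.60% in scrambled cells, where counting alone gives 2.47% at the smallest of these read counts. The authors' deposited table gives Gpr56 a log2 fold change of 2.11, and Gpr56 alone of the 7 genes is in the authors' deposited list of 451 pathway genes.

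Cd97, a receptor for CD55, Thy-1 and integrins, was the second most abundant of the 7 genes in Urod shRNA cells and the most abundant in scrambled cells. Cd97 stood at 48.2, 53.6 and 51.1 TPM in Urod shRNA libraries, against 27.6, 29.7 and 30.5 TPM in scrambled libraries. The groups did not overlap. The means were 51.0 ± 2.75 TPM in Urod shRNA cells and 29.3 ± 1.47 TPM in scrambled cells (SD, n = 3 each), a ratio of 1.74 and a log2 difference of 0.78 (SE 0.05). The authors' deposited table gives Cd97 a log2 fold change of 0.81. In scrambled cells Cd97 and Gpr56 were close, and the lowest Cd97 library, at 27.63 TPM, lay just above the highest Gpr56 library, at 27.61 TPM. Part of the exon bases of Cd97 is shared with Ddx39 on the opposite strand, which makes the level of Cd97 and its difference between the groups uncertain.

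**Figure D1:**
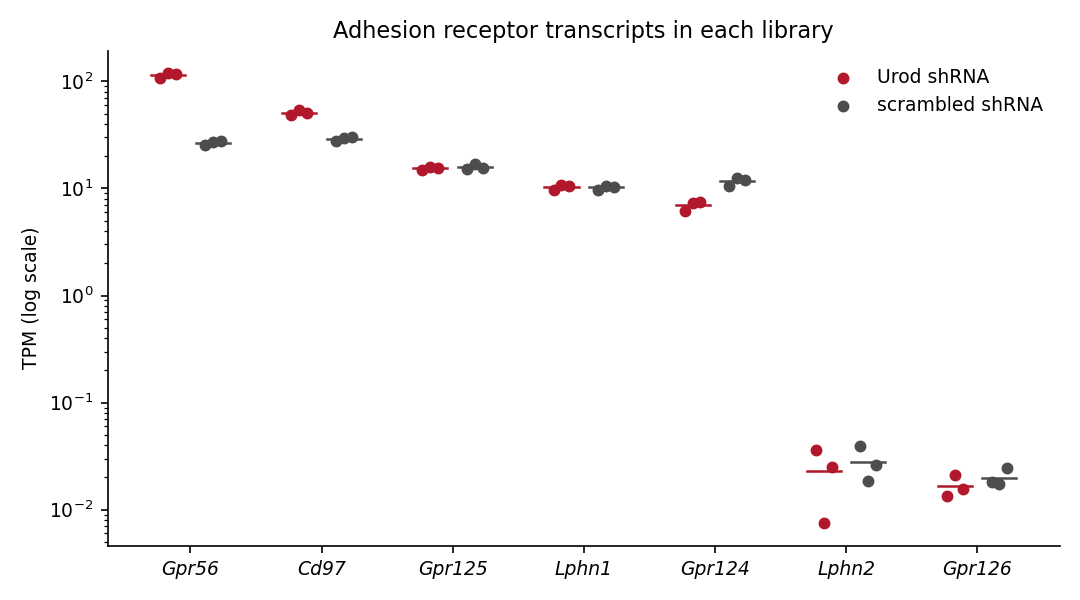
TPM on a log axis for the 7 adhesion receptor genes, with a point for each library and a line at the mean of each group (Urod shRNA in red, scrambled shRNA in grey, 3 libraries each). Gpr56 and Cd97 lie higher and Gpr124 lower in Urod shRNA libraries, Gpr125 and Lphn1 overlap, and Lphn2 and Gpr126 lie below 0.04 TPM.

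Gpr124, an endothelial receptor that works with RECK in WNT7 signalling, was lower in Urod shRNA cells. It stood at 6.18, 7.36 and 7.41 TPM in Urod shRNA libraries, against 10.4, 12.6 and 11.9 TPM in scrambled libraries. The groups did not overlap. The means were 6.98 ± 0.694 TPM in Urod shRNA cells and 11.6 ± 1.08 TPM in scrambled cells (SD, n = 3 each), 1.67-fold lower in Urod shRNA cells, with a log2 difference of -0.66 (SE 0.09). Gpr125, its closest relative, has been linked to planar cell polarity in zebrafish. Gpr125 stood at 15.0, 15.9 and 15.4 TPM in Urod shRNA libraries, against 15.2, 16.98 and 15.7 TPM in scrambled libraries. These groups overlapped, with a log2 difference of -0.04 (SE 0.05).

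Lphn1 and Lphn2 encode latrophilins, receptors for teneurins and FLRT proteins that are best known at synapses. Lphn1 stood at 9.74, 10.8 and 10.5 TPM in Urod shRNA libraries, against 9.78, 10.6 and 10.4 TPM in scrambled libraries. The groups overlapped, with a log2 difference of 0.01 (SE 0.06). Lphn2 had 5, 1 and 3 reads in Urod shRNA libraries and 4, 2 and 3 reads in scrambled libraries. That is 0.622 reads per 1e+07 in Urod shRNA cells (95% exact Poisson interval 0.284 to 1.18) and 0.733 in scrambled cells (0.335 to 1.39). Gpr126, a receptor needed for Schwann cell myelination, had 2, 3 and 2 reads in Urod shRNA libraries and 2, 2 and 3 reads in scrambled libraries. That is 0.484 reads per 1e+07 in Urod shRNA cells (0.195 to 0.997) and 0.570 in scrambled cells (0.229 to 1.18). Lphn2 and Gpr126 averaged under 1 TPM and were not tested, a difference in either was not detectable at this depth, and these intervals cover counting error only.

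In all, 5 of the 7 genes passed the filter on low values. The groups of 3 of those 5 did not overlap, beside 77.3% of all genes tested, and nothing is read from that count because the same contrast led to the choice of genes. In Urod shRNA cells the means of these 5 ran from Gpr56 through Cd97, Gpr125 and Lphn1 to Gpr124, and no pair of neighbours in that order overlapped. In scrambled cells the order was Cd97, Gpr56, Gpr125, Gpr124 and Lphn1, and only Gpr124 and Lphn1 overlapped. Gpr56 was 2.25 ± 0.0375 times Cd97 in Urod shRNA cells and 0.908 ± 0.00406 times Cd97 in scrambled cells (SD, n = 3 each).

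The rest of the family was mostly at low levels. Of 23 other adhesion receptor genes listed, 21 were in the table and 19 of those averaged under 1 TPM, 11 of them under 0.1 TPM. Gpr97, a receptor of granulocytes, stood at 5.56, 6.59 and 5.37 TPM in Urod shRNA libraries and 5.33, 5.98 and 5.70 TPM in scrambled libraries. The groups overlapped and Gpr97 did not pass the test (log2 difference 0.03, SE 0.08, limma, adjusted p = 0.735). Gpr123, an orphan receptor related to Gpr124 and Gpr125, stood at 1.97, 2.44 and 2.19 TPM in Urod shRNA libraries and 1.17, 1.04 and 1.00 TPM in scrambled libraries. Gpr123 rose in Urod shRNA cells (log2 difference 0.63, SE 0.08, limma, adjusted p = 0.000274), and the median of these 2 tested genes was 0.33 beside 0.02 for all genes tested.

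Summed over the 28 family genes in the table, adhesion receptor transcripts came to 209.0 ± 11.4 TPM in Urod shRNA cells and 103.4 ± 5.16 TPM in scrambled cells (SD, n = 3 each). Without Gpr56 the sums were 94.4 ± 5.34 TPM in Urod shRNA cells and 76.8 ± 4.06 TPM in scrambled cells. These sums differ by less than Cd97 alone, which averaged 51.0 TPM in Urod shRNA cells and 29.3 TPM in scrambled cells. The values of Cd97 are uncertain because of its overlap with Ddx39. Gpr56 made up 54.8% ± 0.458 of the family sum in Urod shRNA cells and 25.7% ± 0.481 in scrambled cells. The share of Cd97 was 24.4% ± 0.205 in Urod shRNA cells and 28.3% ± 0.520 in scrambled cells, so its share was the smaller in Urod shRNA cells although its level was the higher.

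**Figure D2:**
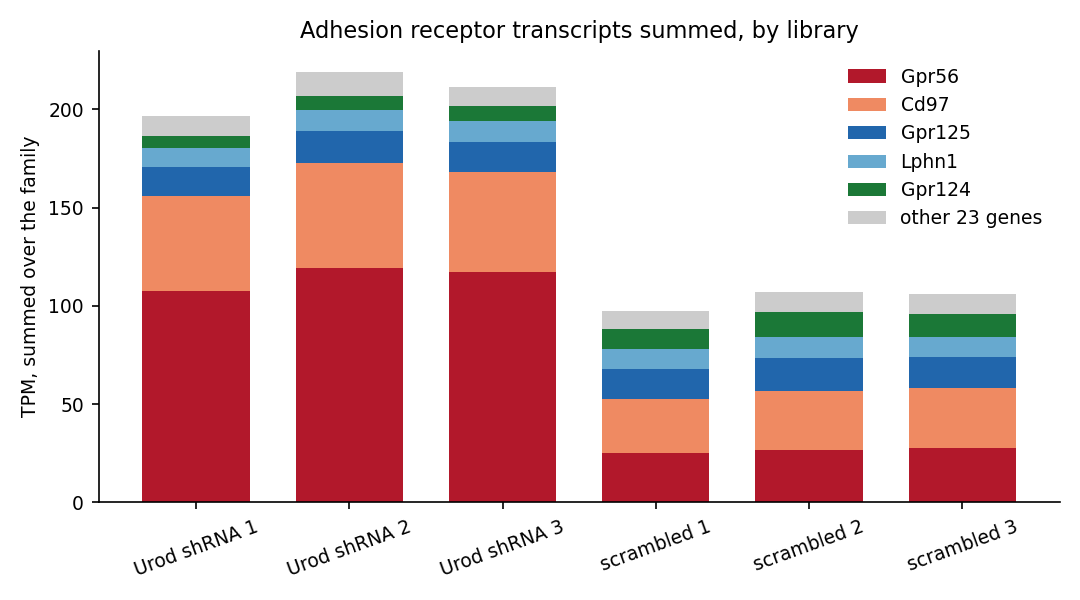
TPM summed over the 28 adhesion receptor genes in each of the 6 libraries, stacked by gene, with the Urod shRNA libraries on the left. The sums average 209.0 TPM in Urod shRNA libraries and 103.4 TPM in scrambled libraries, and Gpr56 (dark red) averages 54.8% of the sum in Urod shRNA libraries and 25.7% in scrambled libraries.

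**Figure D3:**
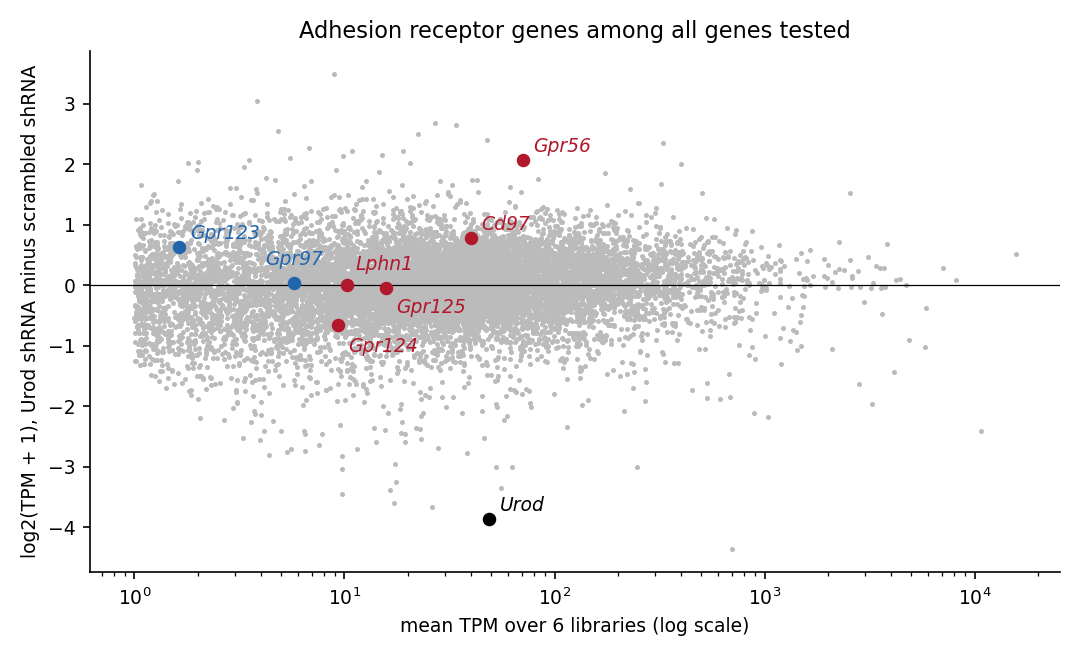
Log2 difference of TPM + 1, Urod shRNA minus scrambled shRNA, against mean TPM over the 6 libraries (log axis), with a grey point for each of the 11980 genes tested. The 5 tested receptor genes are in red, Gpr97 and Gpr123 in blue and Urod in black. Gpr56 lies at 2.07 and Urod at -3.86, while Lphn1 and Gpr125 lie near 0.

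The ligands of these receptors were measured in the same libraries, and most of those tested were lower in Urod shRNA cells. Of 24 ligand genes listed, 8 averaged at least 1 TPM, of which 2 rose and 5 fell in Urod shRNA cells by limma at an adjusted p of 0.05. That is 87.5% called and 62.5% lower, beside 74.7% and 36.2% of all genes tested, with a median difference of -0.65, beside 0.02. Col3a1, the chain of collagen III that binds GPR56, stood at 31.7, 34.2 and 34.9 TPM in Urod shRNA libraries, against 103.6, 119.6 and 115.5 TPM in scrambled libraries. Col3a1 fell in Urod shRNA cells (log2 difference -1.72, SE 0.06, limma, adjusted p = 3.68e-07), and the groups did not overlap. Tgm2, the transglutaminase that also binds GPR56, stood at 15.4, 17.9 and 17.7 TPM in Urod shRNA libraries, against 27.7, 31.9 and 30.3 TPM in scrambled libraries. It fell as well (log2 difference -0.78, SE 0.07, limma, adjusted p = 3.92e-05).

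Collagen IV and the prion protein are ligands of GPR126, whose own transcript was close to absent. Col4a1, a basement membrane collagen chain, stood at 503, 618 and 597 TPM in Urod shRNA libraries, against 991, 1280 and 1243 TPM in scrambled libraries. Col4a1 fell (log2 difference -1.03, SE 0.11, limma, adjusted p = 8.95e-05), and so did its partner chain Col4a2 (log2 difference -0.74, SE 0.12, adjusted p = 0.000694). Prnp, the prion protein gene, fell to 94.1 ± 0.603 TPM in Urod shRNA cells, against 139.8 ± 1.5 TPM in scrambled cells (SD, n = 3 each). Among ligands of latrophilins, Tenm4, a teneurin, rose to 3.97 ± 0.556 TPM in Urod shRNA cells, against 2.07 ± 0.222 TPM in scrambled cells. Flrt2, another latrophilin ligand, had a log2 difference of 0.14 (SE 0.05, limma, adjusted p = 0.0431). This call was lost in 5 of the 6 fits that left out 1 library, all but the one without Urod shRNA replicate 1, with adjusted p between 0.0409 and 0.125, and 1 ligand gene was then left as a rise. Wnt7b, which signals through GPR124 and RECK, averaged 116.3 ± 5.08 TPM in Urod shRNA cells and 110.5 ± 5.58 TPM in scrambled cells and did not pass the test (limma, adjusted p = 0.199), but passed with a replicate block (adjusted p = 0.0255) and by limma-voom on recovered reads (adjusted p = 0.0331). Cd55 and Thy1, the genes of the ligands after which CD97 is best known, lay at or below 0.133 TPM in every library.

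Among the tested membrane partners and adaptors of these receptors none rose. Of 17 listed, 13 were tested, of which 10 fell (76.9%, beside 36.2% of all genes tested) and 3 did not pass the test in limma, with a median difference of -0.43. With no filter on low values 1 of the 17 rose and 12 fell, beside 5119 and 5167 of all 19590 genes. The rise was Shank2, a scaffold that binds latrophilins, at 1.13 ± 0.115 TPM in Urod shRNA cells and 0.460 ± 0.0531 TPM in scrambled cells. Cd9, a tetraspanin found in complex with GPR56, stood at 779.7, 750.3 and 769.8 TPM in Urod shRNA libraries, against 1065, 1053 and 1036 TPM in scrambled libraries, and fell (log2 difference -0.46, SE 0.03, limma, adjusted p = 4.83e-06). Itgb1, the beta subunit of the integrin that CD97 binds, fell to 604.6 ± 4.54 TPM in Urod shRNA cells, against 866 ± 12.8 TPM in scrambled cells (SD, n = 3 each). Partners outside the naming rule were chosen after their values were seen. Cd81, the second tetraspanin of GPR56 complexes, fell (log2 difference -0.84, SE 0.03, limma, adjusted p = 3.32e-07). Itgb3 fell (log2 difference -0.95, SE 0.05) and Itga5 fell (log2 difference -0.25, SE 0.05), while Itgav did not pass the test (log2 difference -0.04, SE 0.04, limma, adjusted p = 0.369). Reck, the membrane anchor that GPR124 needs, averaged 0.397 ± 0.0485 TPM in Urod shRNA cells and 0.570 ± 0.0390 TPM in scrambled cells and was not tested.

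**Figure D4:**
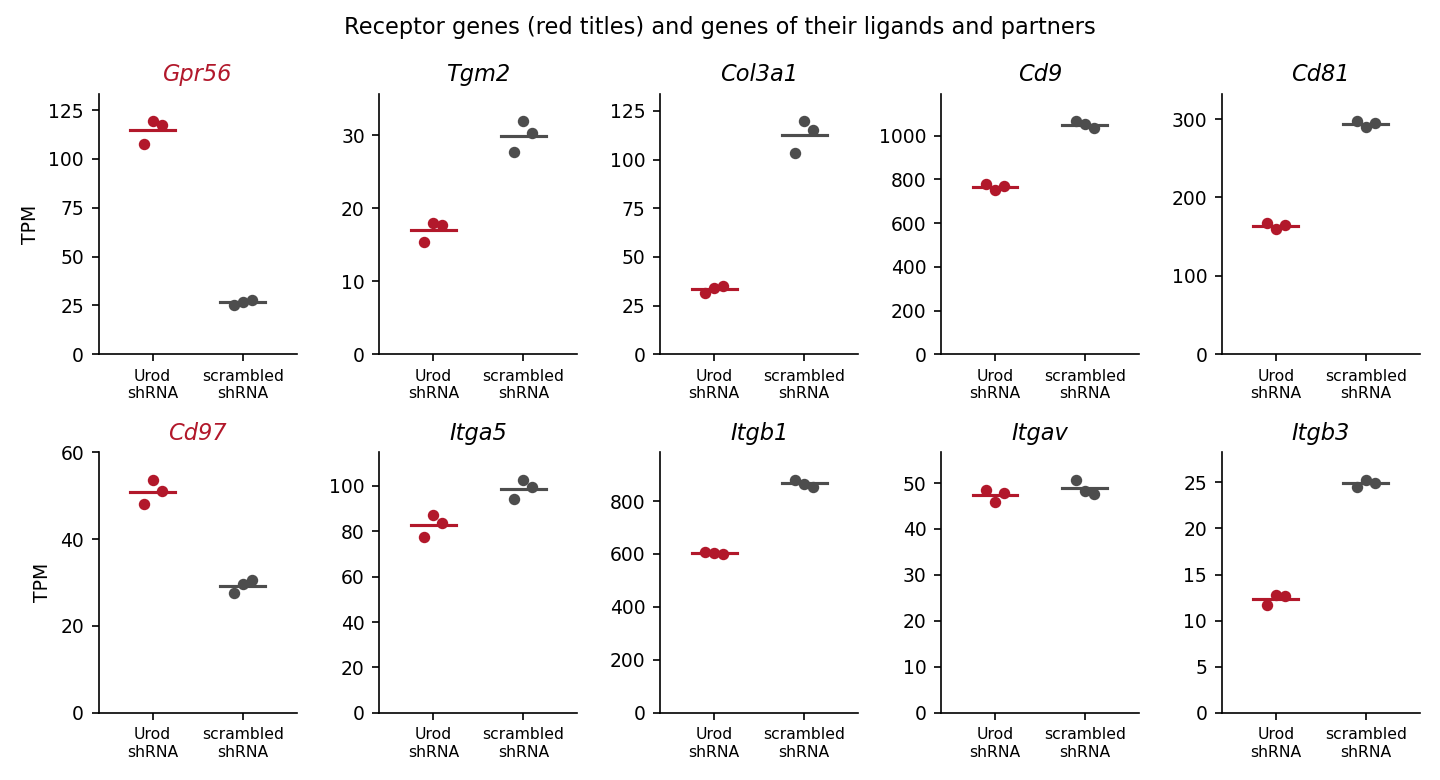
TPM in each library for Gpr56 and Cd97 (red titles) and for genes of ligands and partners of GPR56 (upper row) and CD97 (lower row), each axis from 0, with a line at the mean of each group. Gpr56 and Cd97 lie higher in Urod shRNA libraries, Itgav overlaps, and Tgm2, Col3a1, Cd9, Cd81, Itga5, Itgb1 and Itgb3 lie lower.

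Downstream, GPR56 couples to the G12 and G13 proteins, which act on the cytoskeleton. Of 13 genes of this arm tested, 4 rose, 6 fell and 3 did not pass the test in limma, so that 76.9% were called, beside 74.7% of all genes tested, and the median difference was -0.01. Rhoa, the small GTPase at its centre, fell to 465 ± 9.16 TPM in Urod shRNA cells, against 527 ± 16.5 TPM in scrambled cells (SD, n = 3 each), and Rhob averaged 496 ± 4.38 TPM in Urod shRNA cells and 501 ± 6.73 TPM in scrambled cells (limma, adjusted p = 0.640, and 0.0109 after quantile normalization). The exchange factor Arhgef11 rose (log2 difference 0.44) and the kinase Rock2 fell (log2 difference -0.78), both chosen after their values were seen. For the arm of Gq, phospholipase C and protein kinase C, 1 of 6 tested genes rose and 3 fell, with a median of -0.17. That is 66.7% called, beside 74.7% of all genes tested. Plcb4, which fell, averaged 0.423 TPM in Urod shRNA cells and 1.82 TPM in scrambled cells. It passed the filter on low values only through scrambled cells. At a mean of at least 10 TPM, 1 of 5 tested genes rose and 2 fell. Plcb3, a phospholipase C, fell (log2 difference -0.63, SE 0.07, limma, adjusted p = 9.81e-05), and Vegfa, the angiogenic factor whose secretion GPR56 has been tied to in melanoma, did not pass the test (82.1 ± 4.42 TPM in Urod shRNA cells and 85.3 ± 6.06 TPM in scrambled cells, limma, adjusted p = 0.449). For the Gs, Gi and cyclic AMP arm, 2 of 14 tested genes rose and 10 fell, 14.3% higher and 71.4% lower beside 38.5% and 36.2% of all genes tested, with a median of -0.23. Leaving out 1 library gave 1 rise in place of 2 in 4 of 6 fits, those without Urod shRNA replicate 2 or 3 or scrambled replicate 1 or 3. The gene lost was Adcy7, an adenylate cyclase (adjusted p 0.0269 to 0.123 over the 6 fits). Gnai2, a Gi subunit, fell (log2 difference -0.46, SE 0.03), and Prkar1a, a regulatory subunit of protein kinase A, fell by 0.11 on the log2 scale, a call lost by limma-voom on recovered reads (adjusted p = 0.0684).

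Markers of other cell types that carry adhesion receptors differed between the groups too. The 6 endothelial marker genes summed to 8.83 to 9.87 TPM in Urod shRNA libraries and 4.97 to 5.46 TPM in scrambled libraries, and 5 of the 6 averaged under 1 TPM. Pecam1, an adhesion molecule of endothelium and some leukocytes, rose to 7.37 ± 0.279 TPM in Urod shRNA cells, against 4.74 ± 0.200 TPM in scrambled cells. Of those under 1 TPM, Cdh5 averaged 1.44 TPM in Urod shRNA cells and 0.297 TPM in scrambled cells, and Kdr 0.193 and 0.0303 TPM. With no filter on low values both were called higher (limma, adjusted p = 4.59e-05 for Cdh5 and 0.000478 for Kdr). The 9 leukocyte marker genes in the table summed to 55.0 to 58.4 TPM in Urod shRNA libraries and 111.7 to 113.4 TPM in scrambled libraries, and 6 of the 9 averaged under 1 TPM. Lyz2, a lysozyme of myeloid cells, fell to 11.4 ± 1.03 TPM in Urod shRNA cells, against 49.2 ± 1.53 TPM in scrambled cells (limma, adjusted p = 2.55e-07), and Cd68, a lysosomal protein of macrophages, fell to 30.8 ± 0.826 TPM in Urod shRNA cells, against 53.2 ± 0.866 TPM in scrambled cells. Cd14, a myeloid receptor for lipopolysaccharide, rose to 12.9 ± 0.818 TPM in Urod shRNA cells, against 8.37 ± 0.207 TPM in scrambled cells (limma, adjusted p = 5.66e-05). Ptprc, which all leukocytes carry, lay at or below 0.0792 TPM in every library. The part of these markers in the receptor differences was not tested.

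On the chromosome, Gpr56 (Adgrg1, ENSMUSG00000031785.16) spans chr8:94974751-95014217 on the plus strand of GRCm38 in GENCODE M21. By RefSeq gene bounds, Gpr97 lies 2.9 kb beyond it on the same strand. Within 250 kb of Gpr56, 9 other genes were tested, of which 5 rose and 2 fell in limma, 77.8% called beside 74.7% of all genes tested, with differences between -1.25 for Dok4 and 0.74 for Ciapin1. The difference of Gpr56 was 2.07, and that of the adjoining Gpr97 was 0.03. Gpr56 was chosen for its large rise, so its place above its neighbours is a description and no result about the locus.

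The promoters of Gpr56 and Gpr97 are shown because these neighbours on the same strand had differences far apart. The choice of Gpr56 for its rise made such a gap likely. RefSeq lists 2 starts for Gpr56 and 1 for Gpr97 on GRCm38.p6, and each run holds 250 bases before and 50 bases after the start. Capitals mark matches to TGANTCA, the letters bound by AP-1 factors, on either strand.
Gpr56 start 1, chr8:94976859-94977158, plus strand: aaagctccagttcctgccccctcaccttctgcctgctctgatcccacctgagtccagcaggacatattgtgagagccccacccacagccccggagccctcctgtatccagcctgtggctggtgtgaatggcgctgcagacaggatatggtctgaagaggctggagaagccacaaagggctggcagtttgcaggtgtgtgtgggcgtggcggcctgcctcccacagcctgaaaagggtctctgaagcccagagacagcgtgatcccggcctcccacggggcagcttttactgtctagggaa
Gpr56 start 2, chr8:94984149-94984448, plus strand: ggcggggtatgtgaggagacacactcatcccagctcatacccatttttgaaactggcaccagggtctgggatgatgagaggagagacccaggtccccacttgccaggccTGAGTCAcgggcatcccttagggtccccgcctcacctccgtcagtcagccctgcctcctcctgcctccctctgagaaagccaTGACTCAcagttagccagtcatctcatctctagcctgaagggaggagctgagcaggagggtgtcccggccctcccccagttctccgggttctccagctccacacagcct
Gpr97, chr8:95017442-95017741, plus strand: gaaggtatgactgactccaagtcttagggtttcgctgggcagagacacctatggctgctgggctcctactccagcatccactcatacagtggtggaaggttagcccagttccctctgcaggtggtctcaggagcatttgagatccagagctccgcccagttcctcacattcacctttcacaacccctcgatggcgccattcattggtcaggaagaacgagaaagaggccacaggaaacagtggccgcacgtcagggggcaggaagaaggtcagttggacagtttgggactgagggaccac
The second Gpr56 start held TGAGTCA beginning 141 bases before it and TGACTCA beginning 59 bases before it. Of 32851 mouse promoters of this length, 7.81% held TGANTCA and 0.460% held it at 2 or more places. The first Gpr56 start and the Gpr97 start held none. TGANTCA was 1 of 7 motifs searched, and the share with 2 or more places was counted for it alone. Searches of the same 3 windows on both strands for the GC box GGGCGG, the CCAAT box, the TATA box TATAAA, the E-box CACGTG, the antioxidant response core TGACNNNGC and the amino acid response element TGATGNAAT matched only in Gpr97, with GGGCGG beginning 99 bases and CCAAT 49 bases before the start, both read on the minus strand. Among all promoters GGGCGG was found in 35.7% and CCAAT in 37.4%. No matches of different motifs overlapped, and a match is a description of letters only.

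Cd97 (Adgre5, ENSMUSG00000002885.14) spans chr8:83723251-83741326 on the minus strand, and its 3' end runs into Ddx39 on the plus strand. Ddx39, an RNA helicase of messenger RNA export, shares 895 of the 3757 exon bases of Cd97, 23.8% of them, and the cut site shown above lies inside the span of Ddx39. Ddx39 stood at 487.8, 489.5 and 486.7 TPM in Urod shRNA libraries, against 151.2, 154.4 and 148.4 TPM in scrambled libraries. Ddx39 rose in Urod shRNA cells (log2 difference 1.68, SE 0.03, limma, adjusted p = 2.31e-08). The libraries were made with strand information, but whether the counting used it is not stated in the sources at hand. Reads of the shared bases therefore cannot be told apart. The level of Cd97, its difference between the groups and its ratio to Gpr56 are uncertain to that extent. The part of Ddx39 reads in the difference of Cd97 was not tested. The hairpin gene Mir1668 also lies within Cd97, on the same strand, with 31 shared exon bases, and within the span of Ddx39. Mir1668 had a log2 difference of 0.55 (SE 0.08, limma, adjusted p = 0.0005). Whether its reads are those of Cd97 or Ddx39 was not tested. Mir1668 and Ddx39 are both among the rises counted next. Within 250 kb of Cd97, 9 other genes outside the family were tested, of which 4 rose and 4 fell, 88.9% called beside 74.7% of all genes tested, with differences between -0.50 and 1.68.

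**Figure D5:**
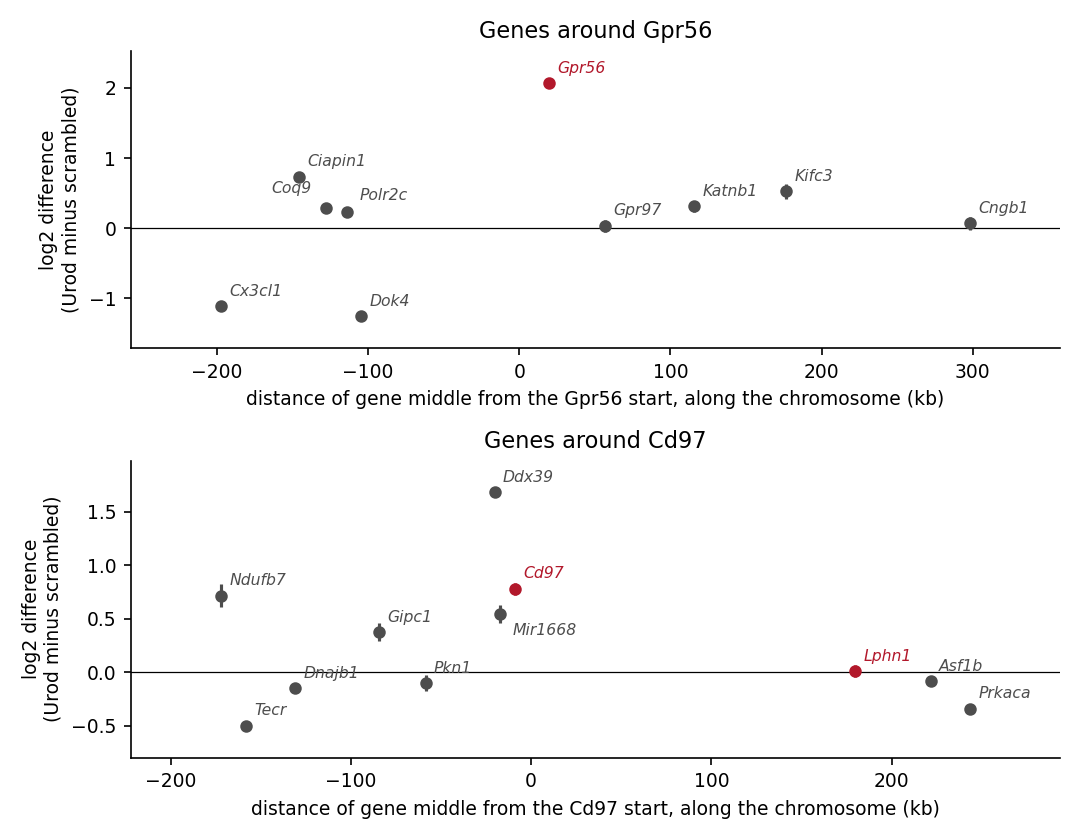
Log2 difference of TPM + 1, Urod shRNA minus scrambled shRNA, of genes tested within 250 kb of Gpr56 (upper panel) and Cd97 (lower panel), against the distance of each gene's middle from the start of the receptor gene. Points are estimates with bars of 1 standard error, and receptor genes are in red. Gpr56, chosen for its large rise, lies at 2.07 above its neighbours, while Ddx39 at 1.68 lies above Cd97 at 0.78.

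Lphn1 (Adgrl1, ENSMUSG00000013033.16, chr8:83900105-83941954, plus strand) lies 158.8 kb from Cd97. Its neighbour on the other side, the histone chaperone gene Asf1b, had a log2 difference of -0.08 (limma, adjusted p = 0.0374). Gpr124 (Adgra2, ENSMUSG00000031486.15, chr8:27085583-27123436, plus strand) shares 73 exon bases, 1.26% of its exon bases, with Brf2 on the opposite strand. Brf2, a transcription factor of RNA polymerase III, rose to 32.8 ± 1.14 TPM in Urod shRNA cells, against 23.2 ± 0.976 TPM in scrambled cells (SD, n = 3 each), the opposite direction to Gpr124. On its other side Prosc had a log2 difference of 0.10 (SE 0.03, limma, adjusted p = 0.0199). Gpr125 (Adgra3, ENSMUSG00000029090.12) spans chr5:49959956-50059006 and Lphn2 (Adgrl2, ENSMUSG00000028184.12) chr3:148815583-148990555, both on the minus strand, and the table's genes beside them averaged under 1 TPM. Beside Gpr126 (Adgrg6, ENSMUSG00000039116.6, chr10:14402583-14545659, minus strand), Vta1 fell to 80.9 ± 2.01 TPM in Urod shRNA cells, against 93.7 ± 0.803 TPM in scrambled cells, and Hivep2 averaged 6.92 ± 0.427 TPM in Urod shRNA cells and 6.08 ± 0.131 TPM in scrambled cells (limma, adjusted p = 0.0399). Of the 6 fits that left out 1 library, 5 lost the call of Asf1b (all but that without scrambled replicate 3) and 5 that of Hivep2 (all but that without Urod shRNA replicate 1), with adjusted p of at most 0.135. The call of Prosc was lost in 3, those without Urod shRNA replicate 3 or scrambled replicate 2 or 3.

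The genes whose profile over the 6 libraries was most like that of Gpr56 were sought among 3841 tested genes with a mean within 2-fold of its own. Likeness was the distance between log2(TPM + 1) profiles, each less its own mean, and the closest were Heatr3 at 0.423, Cth at 0.432, Smim4 at 0.463, Gm9758 at 0.491 and Imp4 at 0.552. Heatr3, a chaperone of ribosomal protein import, averaged 129.3 ± 2.39 TPM in Urod shRNA cells and 37.4 ± 1.26 TPM in scrambled cells. Cth, cystathionine gamma-lyase of the transsulfuration pathway, averaged 66.1 ± 1.96 TPM in Urod shRNA cells and 19.0 ± 0.353 TPM in scrambled cells. None of the 5 is an adhesion receptor, and since the profile of Gpr56 chose them, their differences are given without a test.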

How the data were processed

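Polyadenylated RNA of 6 libraries was made into strand-specific libraries and read as single-end reads, per the labels' protocols. Reads were trimmed, mapped to mm10 with TopHat and dropped at low mapping quality, per the labels' protocols, and Cufflinks and Cuffdiff 2.1.1 are named in the submitters' processing notes. The assignment of reads to overlapping genes, with or without strand, is not given in these sources. The deposited table is called normalized counts, but every column sums to 1000000 (1e+06), and its values were read as TPM made by the authors. A second deposited table, the authors' own comparison, holds a log2 fold change, log2 CPM, a likelihood ratio score and p-values per gene, per the file headers, and only its log2 values are printed.

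Of 19617 rows, 27 carry a date instead of a gene name and were left out, with 0.231% to 0.241% of the TPM of a library. Genes averaging 1 TPM or more (11980) were fitted as log2(TPM + 1) with limma 3.58.1 in R 4.3.3 (two-sided, moderated by empirical Bayes along a variance trend, adjusted by Benjamini-Hochberg over all genes tested, threshold 0.05). The scale understates the differences of low genes. Whole reads were recovered from the TPM, within 0.001 reads for 100% of tested genes. The common factor of each tested gene was set by the authors' log2 CPM. For genes under 1 TPM, Lphn2 and Gpr126 among them, the smallest whole numbers that gave the TPM were taken. The recovery of reads and a limma-voom fit to those reads were added after the data were seen. The steps were tested on simulated data. Figures were drawn with matplotlib 3.10.9.

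The receptor genes and all lists were chosen with earlier results of these data known. Named genes are Urod, the 7 receptors, other family genes of at least 1 TPM, from each list the genes called with a log2 difference of at least 1 and the 2 of highest mean, the nearest neighbours (1 is not reported here), and the 5 profiles most like Gpr56. Others were chosen after their values were seen. Of the table's genes, 99.2% were placed by name in RefSeq. Promoters are from RefSeq (GRCm38.p6), where Cd97 and Gpr124 had no entry in the table used. The alternatives changed the pseudocount, the filter, the scaling or the variance trend, added a replicate block, left out each library, or used the fit to recovered reads.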

Additional observations from a re-analysis of the deposited data

How the results depend on the processing

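The log2 difference of Gpr56 was 2.07 as reported, 1.77 with a pseudocount of 10 and 2.15 by limma-voom on recovered reads, a fit chosen after seeing the data. With a pseudocount of 10 the difference of Cd97 was 0.63 and that of Gpr124 was -0.35. A larger pseudocount pulls all log2 differences towards 0 by construction. In the list of other family genes 1 of 2 tested genes was called as reported (50%, beside 74.7% of all genes tested). With no filter on low values 8 of 21 were called, 3 higher and 5 lower, beside 10286 of all 19590 genes. The count was 0 at a mean of at least 10 TPM, where no gene of the list was left to test. Over the other alternatives the total count called in each list stayed within 1.5 times that reported, and Urod, Gpr56, Cd97 and Gpr124 kept their direction. Lphn1 and Gpr125, near 0 as reported, changed sign in some (Lphn1 -0.02 to 0.06, Gpr125 -0.08 to 0.00). Counts of rises alone moved more. Of ligands 2 rose as reported, 1 with no filter, 0 at a mean of at least 10 TPM, and 3 with a replicate block or limma-voom. At 10 TPM the 2 reported rises, Tenm4 and Flrt2, were no longer tested. Of Gs and Gi genes 2 rose as reported, and 1 with no filter or at a mean of at least 10 TPM. In that last setting Adcy3, a reported rise, was no longer tested. Without single libraries, each left out once, there were 8262 to 9008 called genes, and the differences were 2.03 to 2.11 for Gpr56 and -3.89 to -3.84 for Urod. There were then 1 to 1 called genes for the other family genes, 6 to 7 for ligands, 10 to 10 for membrane partners, 8 to 11 for G12 and G13, 4 to 5 for Gq and 10 to 11 for Gs and Gi.

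A replicate block called 9882 genes, against 8945 without it. Deviations of same-numbered libraries correlated across genes at 0.418, 0.214 and 0.0951, and scrambled library 3 correlated better with Urod shRNA library 2 (0.203) than with library 3. Deviations of differently numbered libraries correlated at -0.335 to 0.203. Each Urod shRNA library correlated best with the scrambled library of its own number. Whether same-numbered libraries were paired cannot be told from the labels, and the fit reported used no block. For all 5 tested receptors library 1 was the lowest of its group in both groups, as it was for 36.7% of genes tested.

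Depth limits Lphn2 and Gpr126, with at most 5 reads a library. The overlap of Cd97 with Ddx39 limits the level of Cd97 and its difference between the groups.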
